A study of Mus musculus with 18 samples.

Results

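This account covers 10 genes of the regulated secretory pathway. They were chosen by name from what their products do in prohormone processing and in granules. Earlier results of these data were known by then, so the choice was not blind to how they moved. The convertases are Pcsk1 and Pcsk2, with the partner proteins Pcsk1n and Scg5. The finishing enzymes are Cpe and Pam, and the granule proteins are Vgf, Scg2, Chga and Chgb. These members are 10 of the 23235 gene symbols in the deposited tables. All 10 passed the filter on low values that left 14831 genes to test.

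RNA was sequenced from the microdissected arcuate nucleus, which lies at the base of the hypothalamus and governs feeding and the reproductive axis. The mice were ovariectomized females of strain C57/BL, and their ages are not given. The genotypes were wild type (WT), knockout of ERα (ERKO) and KIKO. Oil or estradiol benzoate (E2) was injected on day 5, with 250 ng of hormone, and again on day 6, with 1500 ng. Each of the 6 combinations of genotype and treatment had 3 libraries, 18 in all. Every group therefore shared ovariectomy, 2 injections, a 1 h fast and death 24 h after the second injection. ERKO mice lack ERα, the estrogen receptor encoded by Esr1. The name KIKO usually stands for a null allele opposite a knocked-in ERα without binding to estrogen response elements (EREs). The labels describe neither allele, and they do not say whether a library came from 1 animal. The p-values therefore measure the spread between these libraries. The title of the series asks which estrogen signals depend on EREs.

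Neuropeptides and peptide hormones are made as long precursors that are cut inside dense core granules. The convertases PC1/3 (Pcsk1) and PC2 (Pcsk2) cut after pairs of basic residues, carboxypeptidase E (Cpe) trims those residues away, and the amidating enzyme (Pam) finishes the carboxyl end of many peptides. Granins are acidic proteins that are packed into the same granules and are themselves cut into peptides. The arcuate nucleus holds many peptide neurons that depend on this machinery, among them the POMC, AgRP and kisspeptin neurons.

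The promoters of Scg2, Chgb and Pcsk1 are shown first because they carry in full the motif the granin genes are best known for. This motif is the cAMP response element (CRE), which is bound by CREB. The promoter of Chga, also a granin gene, is shown beside them and holds the 5-base core of the motif. It reads TGACGTAA there, against TGACGTCA for the full motif. Sequences are from RefSeq (GRCm38.p6), where windows of 250 bases before to 50 after the start were found for 8 of the 10 genes. Vgf and Cpe had no entry. Each line gives bases −110 to −1 before the start, 5′ to 3′ on the strand of the gene, and the capitals mark the full CRE (TGACGTCA) or its 5-base core (TGACG).
Scg2, chr1:79440027-79440136, minus strand: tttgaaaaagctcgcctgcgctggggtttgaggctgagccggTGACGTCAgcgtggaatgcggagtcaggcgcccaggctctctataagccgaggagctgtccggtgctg
Chgb, chr2:132781532-132781641, plus strand: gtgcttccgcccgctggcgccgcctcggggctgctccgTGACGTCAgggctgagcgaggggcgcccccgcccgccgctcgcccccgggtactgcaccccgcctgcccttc
Chga, chr12:102554831-102554940, plus strand: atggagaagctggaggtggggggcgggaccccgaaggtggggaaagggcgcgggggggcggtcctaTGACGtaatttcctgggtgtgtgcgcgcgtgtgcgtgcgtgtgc
Pcsk1, chr13:75089747-75089856, plus strand: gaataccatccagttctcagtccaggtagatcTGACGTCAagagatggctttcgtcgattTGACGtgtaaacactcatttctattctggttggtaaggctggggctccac

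The full CRE began at position −68 in Scg2, −72 in Chgb and −78 in Pcsk1. Pcsk1 held a separate core at −50 and Chga a core at −44. Across 32851 RefSeq promoter windows of the same length, searched on both strands, 1.79% held the full CRE and 20.8% the core, which every full CRE contains. Scg5 and Pcsk2 held the core as well. The full ERE (GGTCA, any 3 bases, then TGACC) was in no window of the 8 genes and in 0.0700% of all windows. Pam had 2 overlapping windows. The arm of the ERE (GGTCA) was in windows of Pam and Pcsk1 and in 40.5% of all. The motif of AP-1 (TGANTCA) was in the window of Pcsk1n and in 7.81% of all. These are letter matches in short windows and no measurement of binding.

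The libraries were first checked for their labels and tissue. Esr1 averaged 8.05 FPKM in WT oil and 2.09 FPKM in ERKO oil, a log2 difference of −1.49 ± 0.32 (adjusted p = 0.0373, limma). After E2 the difference of ERKO from WT was −1.34 ± 0.32 and did not pass (adjusted p = 0.0585, limma). KIKO oil averaged 3.65 FPKM. It differed from WT oil by −0.91 ± 0.32 (adjusted p = 0.332, limma) and from ERKO oil by 0.59 ± 0.32 (adjusted p = 0.999). Under oil Esr1 thus checks the ERKO label but not the KIKO label. FPKM is the number of fragments scaled to transcript length and to the depth of the library, so levels of different genes can be compared. It cannot separate intact from truncated Esr1 transcripts. Neuron markers, of which 9 of 10 were in the files, summed to between 1132 and 1478 FPKM in every library. Library 3 of ERKO E2 stood apart. It correlated with the others at 0.914 to 0.947 across tested genes, against 0.956 to 0.990 among the other 17, and its vasopressin and oxytocin transcripts (Avp and Oxt) summed to 20499 FPKM, against 1742 to 7265 in the rest. It also held the highest Pcsk1n, Scg5 and Cpe of all 18 libraries.

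Apart from the 2 convertases, the members are abundant transcripts in this tissue. By level among the tested genes of a library, Pcsk1 ranked from 1528 to 5552 and Pcsk2 from 1507 to 2544. Pam, the next member, ranked from 438 to 913. Averaged over the 18 libraries, Cpe stood at 990 FPKM, Pcsk1n at 937, Scg2 at 491, Vgf at 398, Chga at 328, Scg5 at 238, Chgb at 192, Pam at 125, Pcsk2 at 47.6 and Pcsk1 at 33.4 FPKM. Cpe was the highest member in 14 libraries and Pcsk1n in the other 4. The 2 convertases held the last 2 places in every library. The ranges of neighbours in this order overlapped over the libraries, except that Pam, at 104 to 141 FPKM, never came down to Pcsk2, at 39.1 to 57.7 FPKM. The authors' confidence bounds reached at most 7.99% of the value to either side, for Pcsk1, and at most 2.35% for Vgf.

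The members differed in how far the 6 group means lay apart on the log2(FPKM + 1) scale. Vgf spanned 1.46, Pcsk1 1.06 and Pcsk1n 0.999, and Chga, Scg2 and Chgb spanned 0.91, 0.82 and 0.70. The enzymes Pcsk2, Pam and Cpe and the chaperone Scg5 spanned 0.20 to 0.36. The plot of all 10 genes by library shows both kinds side by side.

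**Figure D1:**
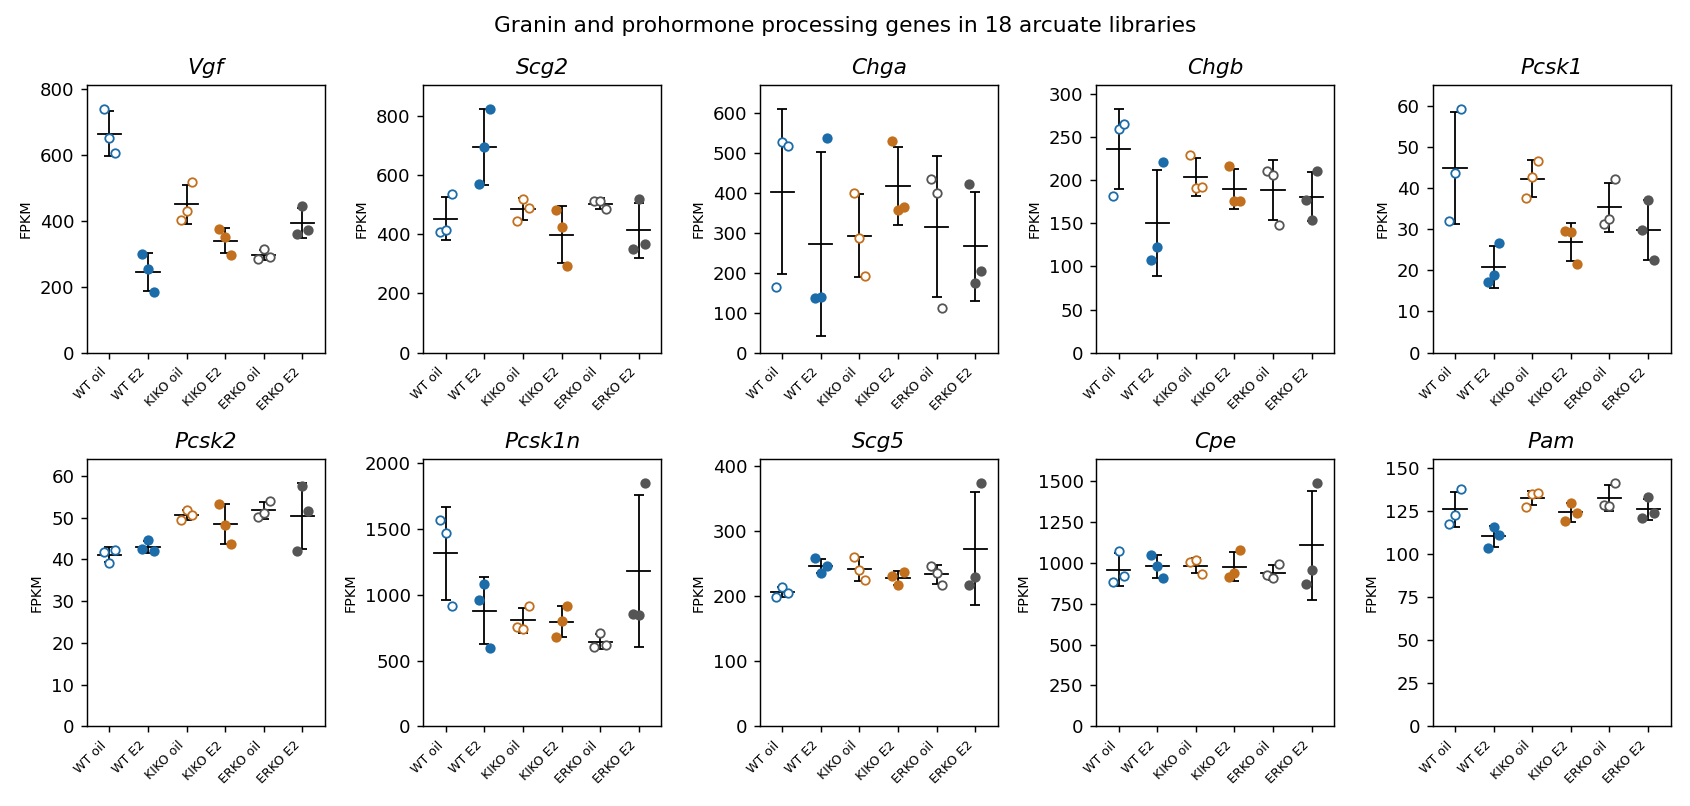
FPKM of the 10 genes (y axes, linear from 0) in each of the 18 libraries, arranged by genotype and treatment; points are libraries (open for oil, filled for E2), long horizontal lines group means and whiskers ± SD (n = 3). Vgf falls from 605 to 738 FPKM in WT oil to 184 to 298 FPKM in WT E2, while the group means of Cpe and Pam lie within 0.20 and 0.26 on the log2 scale and Chga scatters within groups.

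Vgf, a neurotrophin-inducible granin precursor whose peptides act in energy balance and reproduction, had the largest E2 change of the 10 members in WT. In WT oil the 3 libraries held 738, 650 and 605 FPKM, and in WT E2 298, 252 and 184 FPKM. In KIKO the values were 403, 431 and 517 FPKM under oil and 374, 349 and 297 FPKM after E2. In ERKO they were 283, 313 and 289 FPKM under oil and 360, 445 and 373 FPKM after E2. The oil and E2 libraries did not overlap in any genotype, with E2 below oil in WT and KIKO and above it in ERKO. Under oil the order was WT, KIKO, ERKO with no overlap between neighbours.

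Tested over all genes with limma, Vgf fell in WT after E2 by 1.46 on the log2 scale, SE 0.17 (adjusted p = 0.000177), to 0.363 of its oil level. It passed in all 19 alternatives, with an adjusted p from 3.56e-05 to 0.0073. In KIKO the change was −0.40 ± 0.17, with an unadjusted p of 0.0275 (limma) and an adjusted p of 1 as for every member in KIKO. In ERKO it was 0.40 ± 0.17 (adjusted p = 0.475, limma), and 0.44 without ERKO E2 library 3. The response in ERKO differed from that in WT by 1.865 ± 0.23 (adjusted p = 0.00113, limma), while the KIKO response differed from WT by 1.06 ± 0.23 (adjusted p = 0.122) and from ERKO by −0.81 ± 0.23 (adjusted p = 0.746). The 3 differences share libraries, and only the first passed. With quantile normalization the ERKO minus WT difference was 1.62 and did not pass (adjusted p = 0.0581, limma).

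The ERKO minus WT difference held a gap that was there before E2. Under oil Vgf was lower in ERKO than in WT by −1.16 ± 0.17 (adjusted p = 0.0127, limma), and this call was lost without ERKO oil library 1 (−1.13, adjusted p = 0.0747) or without library 3 (−1.15, adjusted p = 0.0780). KIKO oil lay between, at −0.56 ± 0.17 from WT (adjusted p = 0.245, limma) and 0.60 ± 0.17 above ERKO (adjusted p = 0.999). After E2 the order of the means was turned, with ERKO 0.70 ± 0.17 above WT (adjusted p = 0.0516, limma) and KIKO 0.49 ± 0.17 above WT (adjusted p = 0.272). Neither difference passed, and the KIKO libraries overlapped with those of WT and with those of ERKO. Without the divergent ERKO E2 library 3, ERKO lay 0.74 above WT and passed (adjusted p = 0.0165, limma).

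**Figure D2:**
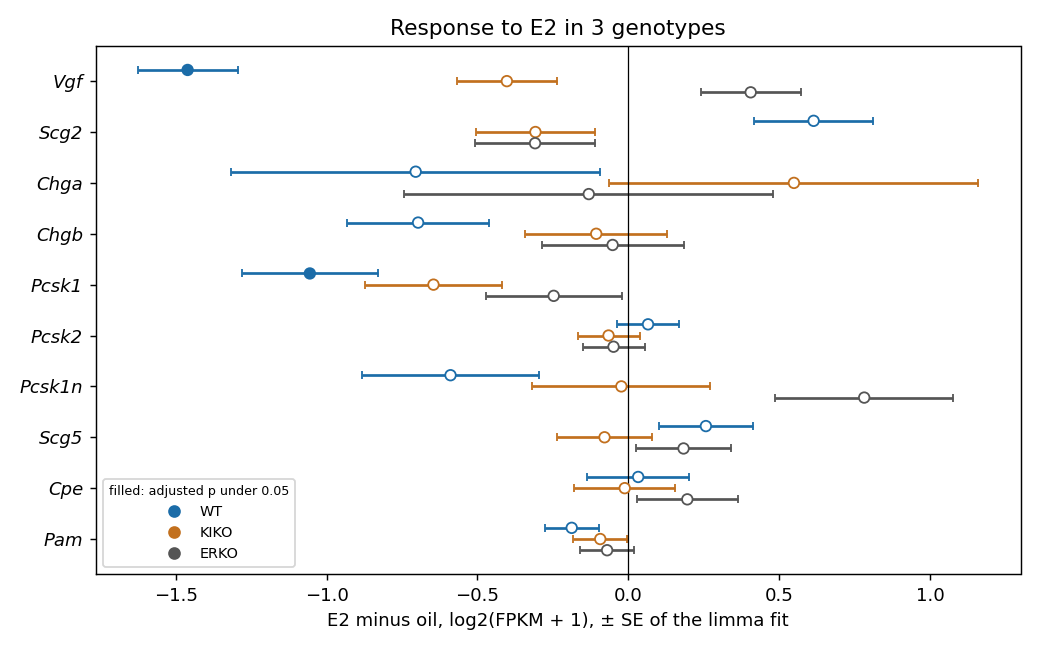
Log2 change after E2 (x axis, log2(FPKM + 1) scale) for each of the 10 genes (y axis) in WT, KIKO and ERKO; points are limma estimates, filled where the adjusted p was under 0.05, and whiskers ± SE. Vgf lies at −1.46 in WT, −0.40 in KIKO and 0.40 in ERKO, and Pcsk1 at −1.06, −0.65 and −0.25.

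Of the convertases, Pcsk1 passed a test and Pcsk2 passed none. Pcsk1 held 32.1, 43.7 and 59.3 FPKM in WT oil and 17.1, 18.9 and 26.6 FPKM in WT E2. KIKO libraries held 37.7, 42.8 and 46.7 FPKM under oil and 29.6, 29.4 and 21.6 FPKM after E2. ERKO libraries held 31.3, 32.6 and 42.2 FPKM under oil and 30.0, 37.2 and 22.7 FPKM after E2. Oil and E2 did not overlap in WT or in KIKO, and overlapped in ERKO.

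Pcsk1 fell after E2 in WT by 1.06 on the log2 scale, SE 0.23 (adjusted p = 0.0391, limma). Over 19 alternatives its adjusted p ran from 0.00356 to 0.178, and 9 passed. The call was lost without WT oil library 2 (−1.05, adjusted p = 0.111), WT oil library 3 (−0.84, adjusted p = 0.112), WT E2 library 1 (−0.93, adjusted p = 0.178) or WT E2 library 2 (−0.998, adjusted p = 0.157). In KIKO the change was −0.65 ± 0.23 (unadjusted p = 0.0116, limma) and in ERKO −0.25 ± 0.23, neither past the threshold after adjustment. The ERKO change was −0.07 without ERKO E2 library 3. The differences between the responses, 0.41 ± 0.32 for KIKO minus WT and 0.81 ± 0.32 for ERKO minus WT, did not pass (adjusted p = 0.331 for the latter, limma). Pcsk1 is therefore not shown to respond differently between genotypes.

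Pcsk2 was nearly level between oil and E2 in WT. Its WT libraries held 41.9, 39.1 and 42.3 FPKM under oil and 42.4, 44.6 and 42.0 FPKM after E2, a change of 0.06 with a 95% interval of −0.15 to 0.28. The mutants stood above WT under oil, at 49.4, 52.0 and 50.6 FPKM in KIKO and 50.2, 51.2 and 54.1 FPKM in ERKO, with no overlap with WT. After E2 KIKO held 43.8 to 53.3 FPKM and ERKO 42.0 to 57.7 FPKM, overlapping with oil. The differences under oil, 0.30 ± 0.10 and 0.33 ± 0.10, did not pass (adjusted p = 0.316 and 0.0986, limma). The ERKO difference passed without ERKO E2 library 3 in the shared fit (adjusted p = 0.0236, limma).

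The balance of the 2 convertases within a library does not depend on how the library was scaled. The ratio of Pcsk1 to Pcsk2 was 0.766, 1.12 and 1.40 in WT oil and 0.404, 0.422 and 0.632 in WT E2, with geometric means of 1.06 and 0.476. In KIKO the geometric mean went from 0.834 to 0.551, and in ERKO from 0.676 to 0.587, or to 0.678 without ERKO E2 library 3. Oil and E2 did not overlap in WT or KIKO. The exact two-sided permutation p was 0.1 in both, the smallest that 3 against 3 allows, and 0.6 in ERKO. None of 12 such tests on 4 ratios passed after adjustment, where the lowest value was 0.3.

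**Figure D3:**
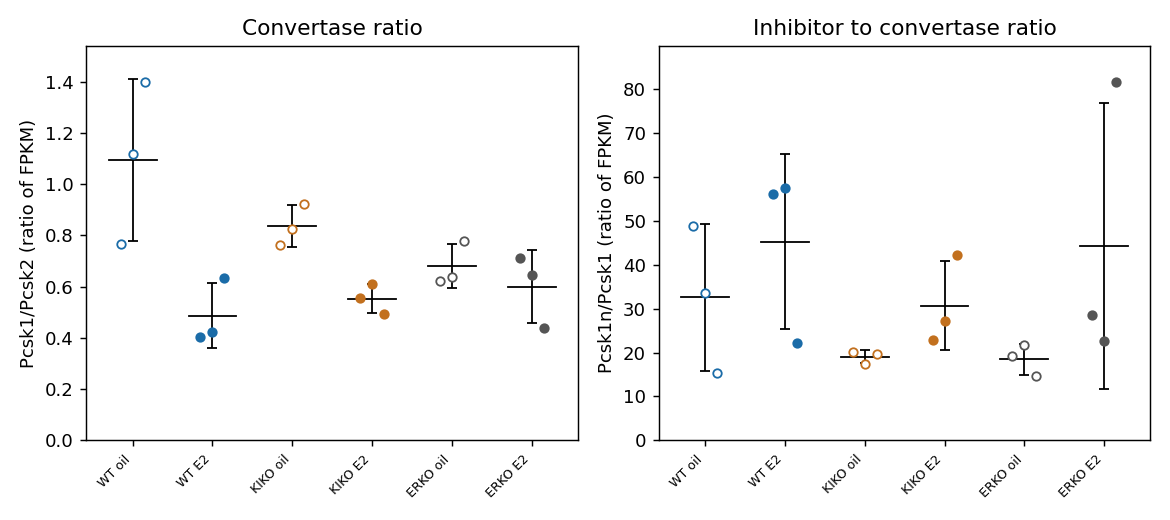
Ratios of FPKM within a library (y axes, linear from 0) for Pcsk1 to Pcsk2 (left) and Pcsk1n to Pcsk1 (right), by group; points are libraries (open for oil, filled for E2), long horizontal lines arithmetic means and whiskers ± SD (n = 3). The Pcsk1 to Pcsk2 values of WT E2, at 0.404 to 0.632, lie below those of WT oil, at 0.766 to 1.40, and the Pcsk1n to Pcsk1 value of ERKO E2 library 3, at 81.7, is the highest.

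Neither partner protein passed a test. Pcsk1n encodes proSAAS, which can inhibit PC1/3. It held 1567, 1469 and 913 FPKM in WT oil against 960, 1084 and 592 FPKM in WT E2, and 758, 741 and 918 FPKM in KIKO oil against 676, 797 and 912 FPKM in KIKO E2. In ERKO it held 599, 707 and 619 FPKM under oil and 853, 845 and 1850 FPKM after E2. WT and KIKO overlapped between treatments, and ERKO E2 lay above ERKO oil.

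The E2 change of Pcsk1n was −0.59 ± 0.29 in WT (adjusted p = 0.522, limma) and 0.78 ± 0.29 in ERKO (adjusted p = 0.475), and the ERKO value was 0.41 without ERKO E2 library 3. Under oil ERKO lay below WT without overlap, at −0.999 ± 0.29 (adjusted p = 0.0848, limma), and this difference passed without ERKO E2 library 3 in the shared fit (adjusted p = 0.00706), and in 4 of its 19 alternatives in all. The 2 WT oil libraries highest in Pcsk1n were also those highest in summed Avp and Oxt outside ERKO E2 library 3, at 7265 and 6980 FPKM against 4447 FPKM in the other WT oil library, and ERKO oil held 1742 to 4292 FPKM. The part of these neurons in the Pcsk1n difference was not tested.

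The ratio of the inhibitor to its enzyme, Pcsk1n to Pcsk1, went, as geometric means, from 29.3 to 41.6 in WT, from 19.0 to 29.6 in KIKO and from 18.3 to 37.5 in ERKO. KIKO and ERKO had no overlap between treatments (exact permutation p = 0.1 for both, the smallest possible), and WT overlapped (exact permutation p = 0.5). The ratios of Scg5 to Pcsk2 and of Vgf to Chgb overlapped between oil and E2 in all 3 genotypes (exact permutation p from 0.2 to 0.9). The log2 change of Pcsk1n to Pcsk1 was 0.50 in WT, and 0.04 without WT oil library 3. It was 0.64 in KIKO, and 0.39 without KIKO E2 library 3, and 1.04 in ERKO, and 0.48 without ERKO E2 library 3.

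Scg5 encodes 7B2, a chaperone that PC2 needs to mature. Its WT libraries held 199, 214 and 205 FPKM under oil and 258, 235 and 246 FPKM after E2, higher without overlap, but the change of 0.26 ± 0.16 did not pass (adjusted p = 0.643, limma). Both mutants under oil, at 225 to 261 FPKM in KIKO and 218 to 246 FPKM in ERKO, also lay above WT oil, by 0.23 and 0.18, and did not pass. In ERKO E2 the libraries held 217, 229 and 374 FPKM. The change in ERKO was 0.18 ± 0.16, and −0.07 without library 3.

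The finishing enzymes had the smallest spans of the 10 members. Cpe held 884, 1071 and 916 FPKM in WT oil and 1048, 978 and 905 FPKM in WT E2, a change of 0.03 with a 95% interval of −0.32 to 0.39. Outside ERKO E2 library 3, at 1488 FPKM, no library was above 1079 FPKM. The ERKO change was 0.20 ± 0.17 with that library and −0.04 without it. Pam held 118, 123 and 138 FPKM in WT oil against 104, 116 and 111 FPKM in WT E2, lower without overlap, with a change of −0.19 ± 0.09 that did not pass (adjusted p = 0.488, limma). After E2 all 6 mutant libraries, at 119 to 133 FPKM, were above the WT libraries.

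Among the granins, Scg2 lay on the opposite side to Vgf in WT. Scg2 encodes secretogranin II, the precursor of secretoneurin. It held 407, 415 and 536 FPKM in WT oil and 568, 694 and 822 FPKM in WT E2. KIKO libraries held 445, 517 and 490 FPKM under oil and 480, 424 and 291 FPKM after E2, and ERKO libraries 514, 513 and 484 FPKM and then 351, 520 and 367 FPKM. The WT E2 libraries stood above WT oil and above all 6 mutant E2 libraries.

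The differences of Scg2 did not pass the threshold. The WT change was 0.61 ± 0.20 (adjusted p = 0.218, limma). After E2, KIKO lay below WT by −0.82 ± 0.20 (adjusted p = 0.0777, limma) and ERKO by −0.76 ± 0.20 (adjusted p = 0.0859). Both passed when ERKO E2 library 3 was left out, KIKO at −0.82 (adjusted p = 0.0223, limma) and ERKO at −0.68 (adjusted p = 0.0489). ERKO also passed without ERKO E2 library 2, at −0.93 (adjusted p = 0.0296, limma). The responses of KIKO and ERKO were each 0.92 below that of WT, with SE 0.28 (adjusted p = 0.523 and 0.221, limma).

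Chga and Chgb encode chromogranins A and B, structural proteins of the granule. Chga held 164, 528 and 517 FPKM in WT oil, 137, 139 and 539 FPKM in WT E2, 401, 286 and 192 FPKM in KIKO oil and 531, 357 and 365 FPKM in KIKO E2. ERKO libraries held 436, 400 and 113 FPKM under oil and 424, 173 and 204 FPKM after E2. The libraries within WT oil, WT E2 and ERKO oil were far apart, and oil and E2 overlapped in every genotype. Chgb held 182, 260 and 266 FPKM in WT oil and 108, 123 and 222 FPKM in WT E2, overlapping, with a change of −0.70 ± 0.24 (adjusted p = 0.251, limma). Its KIKO libraries held 230, 191 and 192 FPKM under oil and 217, 176 and 177 FPKM after E2, and its ERKO libraries 211, 206 and 149 FPKM and then 177, 154 and 211 FPKM, with overlap in both. Chgb passed in WT without WT E2 library 3, at −1.01 (adjusted p = 0.0383, limma).

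Chga scattered together with transcripts of the pituitary and pars tuberalis, the tissue that lies against the arcuate nucleus. All 10 markers of that list were in the files. Their sum was 5.48, 233 and 367 FPKM in WT oil, 4.93, 4.98 and 361 FPKM in WT E2, 225, 92.6 and 47.2 FPKM in KIKO oil and 340, 260 and 150 FPKM in KIKO E2. In ERKO it was 264, 225 and 4.07 FPKM under oil and 209, 27.0 and 22.1 FPKM after E2. Gh and Prl, which define cells of the anterior lobe, were at 0 in every WT and ERKO library and at most 0.213 and 0.647 FPKM in KIKO. The gonadotropin subunits Lhb and Fshb, also made there, were present, with Lhb at up to 31.5 FPKM (KIKO E2) and Fshb at up to 5.44 FPKM (WT oil). Cga, the common subunit of the glycoprotein hormones, ran from 0 to 307 FPKM and was at 0 in 1 library each of WT oil, WT E2 and ERKO oil. The library with the highest sum of its group had the highest Chga in 5 of 6 groups and the highest Chgb in 5 of 6. It had the highest Scg2 in 4 of 6, Pcsk1 in 3 of 6 and Vgf in 1 of 6. For the other members this held in 0 to 2 of 6, with 3 libraries per group.

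**Figure D4:**
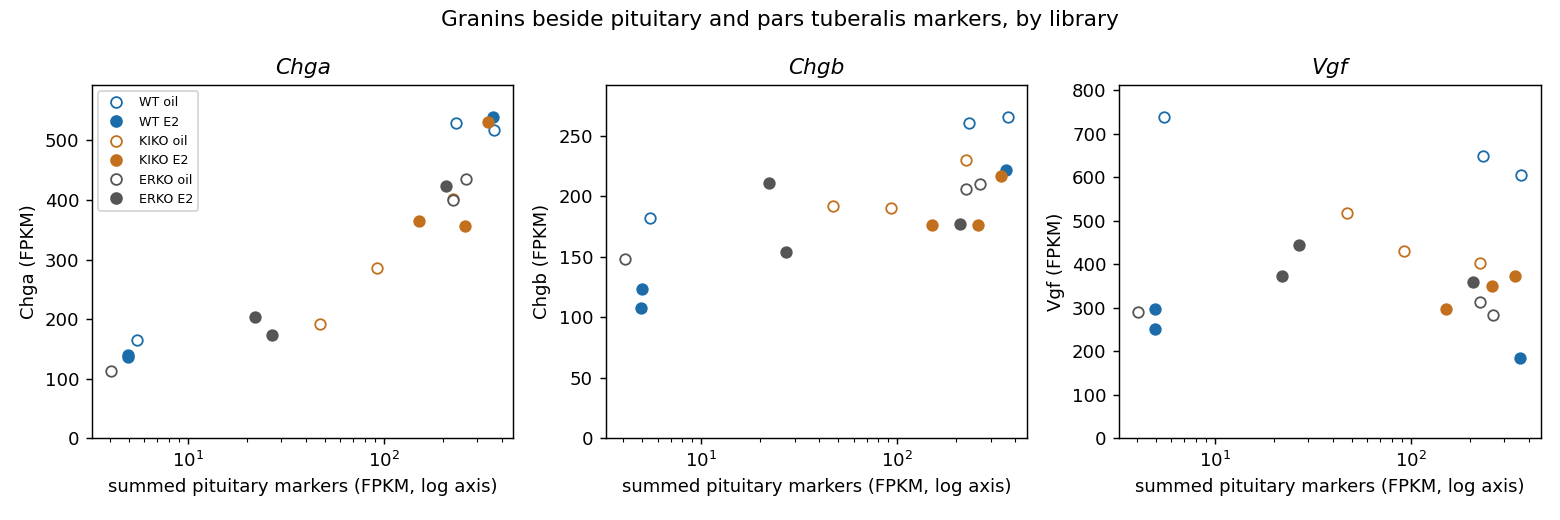
FPKM of Chga, Chgb and Vgf (y axes, linear from 0) against the summed FPKM of 10 pituitary and pars tuberalis markers (x axis, log scale); each point is 1 of the 18 libraries, coloured by genotype, open for oil and filled for E2. Chga is 113 to 204 FPKM in the 7 libraries with the lowest sums and 286 to 539 FPKM in the others. The highest Vgf value, 738 FPKM, is in a library with a sum of 5.48 FPKM.

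With this sum as a covariate, an alternative chosen after seeing the data, a doubling of the sum (with 1 FPKM added) went with a log2 difference of 0.33 ± 0.02 in Chga and 0.11 ± 0.02 in Chgb. It went with −0.09 ± 0.04 in Pcsk1n and −0.05 ± 0.02 in Vgf, and the slopes of the other members were smaller. The slope of Chga was exceeded in size by 0.297% of tested genes, that of Chgb by 2.61%, of Pcsk1n by 4.03% and of Vgf by 16.8%. The cause of these slopes was not tested. The E2 change of Chga in WT went from −0.70 ± 0.61 to −0.10 ± 0.14 and that of Chgb from −0.70 to −0.51 ± 0.15 (adjusted p = 0.149, limma). The change of Vgf in WT was −1.55 ± 0.15 (adjusted p = 7.45e-05, limma), and Pcsk1 stood at −0.97 ± 0.22 and no longer passed (adjusted p = 0.0616, limma).

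Read as a set, 2 of the 10 members were called in WT after E2, both lower, where 0.802% of all tested genes were called and 0.189% were called lower. Groups did not overlap for 5 members, where the share over all genes was 15.8%: Vgf, Pcsk1 and Pam were lower and Scg2 and Scg5 higher. The median change was −0.39 over the members and 0.01 over all genes. The members were chosen with earlier results of these data known, so these figures describe the 10 genes and test no set. In bulk tissue, fewer cells of a type and less RNA per cell cannot be told apart. The 8 arcuate neuron markers summed to 4360 to 5143 FPKM in WT oil and 2937 to 3461 FPKM in WT E2, but they did not move as one. Pomc, Cartpt, Kiss1 and Tac2 were lower without overlap, with the last 2 called, while Agrp, at 165 to 198 and then 255 to 337 FPKM, and Ghrh, at 124 to 131 and then 164 to 188 FPKM, were higher without overlap, and Npy and Tbx3 overlapped. The 9 neuron markers in the files summed to 1287 to 1389 and 1132 to 1301 FPKM, with 1, Nefm, called lower. The 8 astrocyte markers summed to 951 to 1138 and then 868 to 946 FPKM. The 6 markers of the ventromedial nucleus summed to 52.5 to 59.5 and then 31.6 to 51.4 FPKM. Both sums were lower without overlap, with 0 markers called, and those of the other lists overlapped. The part of these marker shifts in the falls of Vgf and Pcsk1 was not tested.

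In KIKO and ERKO no member was called after E2. In KIKO 0.00674% of genes were called, and 2 members, Vgf and Pcsk1, had an unadjusted p under 0.05 (0.944% of genes). The same 2 members were lower without overlap, against 7.40% of all genes, and 9 of the 10 changes were negative, with a median of −0.09, where 45.9% of all genes had negative changes and a median of 0.01. In ERKO 0% of genes were called, and Vgf and Pcsk1n had an unadjusted p under 0.05 (7.19% of genes). These 2 were higher without overlap, against 12.3% of all genes.

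Between genotypes under oil, Vgf was the 1 member called in ERKO against WT, lower, where 1.44% of genes were called and 0.681% were called lower. Groups did not overlap for 4 members, close to the 39.1% of all genes. Arcuate neuron markers summed to 2789 to 2894 FPKM in ERKO oil against 4360 to 5143 FPKM in WT oil, though 0 of these 8 were called. The 8 oligodendrocyte markers summed to 1206 to 1392 against 1456 to 1948 FPKM. The 8 astrocyte markers summed to 823 to 898 against 951 to 1138 FPKM, and Avp and Oxt to 1742 to 4292 against 4447 to 7265 FPKM. All of these sums were lower in ERKO oil without overlap, and those of the other marker lists overlapped. Of the markers, Nefm (neurons) and Gfap (astrocytes) were called lower in ERKO oil, at −0.62 and −1.06. The part of these shifts in the Vgf difference was not tested. KIKO against WT had 0 members called (0.0135% of genes), 3 with an unadjusted p under 0.05 (10.1%) and 3 without overlap (21.8%). KIKO against ERKO had 0 called (0%), Vgf alone under an unadjusted p of 0.05 (2.31%), and 2 without overlap (28.0%), Vgf and Pcsk1n, both higher in KIKO.

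After E2 no member was called between genotypes. KIKO against WT (0.944% of genes called) had 2 members with an unadjusted p under 0.05 (8.98%) and 2 without overlap (21.8%), Scg2 and Pam. ERKO against WT (1.30% called) had 4 with an unadjusted p under 0.05 (11.5%) and 3 without overlap (11.0%), Vgf, Scg2 and Pam. KIKO against ERKO (0.0135% called) had 0 members with an unadjusted p under 0.05 (3.26%) and 0 without overlap (5.49%).

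Of the differences in E2 response, ERKO minus WT called 1 member, Vgf, as higher, where 0.276% of genes were called and 0.0944% called higher. An unadjusted p under 0.05 was found there for 4 members, Vgf, Scg2, Pcsk1 and Pcsk1n, and for 1888 of the 14831 genes. KIKO minus WT called 0 (0.135%), with Vgf and Scg2 under an unadjusted p of 0.05 (4.92%). KIKO minus ERKO called 0 (0%), with Vgf alone under it (2.20%). These comparisons share their control libraries.

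Few other genes of the pathway passed the test. Of 19 tested genes that sort dense core granules or drive their release, 0 passed in any of the 12 comparisons. Of 17 tested convertases and maturation enzymes outside the 10 members, 1 passed in WT after E2 (0.802% of all genes), Pcsk6, the convertase PACE4, which rose by 0.80 ± 0.11 (adjusted p = 0.000945, limma). Pcsk6 was lower in KIKO E2 and ERKO E2 than in WT E2, by −0.67 and −0.96, and its response differed between ERKO and WT by −0.85 ± 0.15 (adjusted p = 0.0231, limma).

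Of 29 tested neuropeptide precursors, the substrates of the convertases, 3 fell in WT after E2, 2 rose and 24 did not pass, where 0.802% of all genes passed. In KIKO and ERKO 0 of them passed, beside 0.00674% and 0% of all genes. Kiss1 (kisspeptin) fell by 3.58, Tac2 (neurokinin B) by 1.21 and Pdyn (dynorphin) by 1.13 on the log2 scale, while Rln3 (relaxin 3) rose by 3.72 and Nts (neurotensin) by 1.03. The median over the list was −0.20, against −0.39 over the members. Under oil, Gal (galanin) and Pdyn were called lower in ERKO than in WT, by −2.17 and −1.14. After E2, Kiss1 was called above WT by 2.92 in KIKO and 3.66 in ERKO. Gal, Nts and Rln3 were called below WT, by −1.38, −1.41 and −3.35 in KIKO and −1.33, −0.98 and −3.30 in ERKO. The called differences in response from WT were 2.72 in KIKO and 4.16 in ERKO for Kiss1, and −3.70 and −3.67 for Rln3. Of 18 tested genes that respond to cAMP and neuronal activity, Bdnf, a neurotrophin, fell by 1.27 in WT after E2. Pdyn fell as above, Nr4a2, an orphan nuclear receptor, rose by 1.63, and the other 15 did not pass, beside the same 0.802% of all genes. Under oil, Fos was called higher in ERKO than in WT, by 0.73, and Pdyn lower as above. After E2, Nr4a2 was called below WT by −1.91 in KIKO and −2.14 in ERKO, and Bdnf above WT by 0.83 in ERKO. The Nr4a2 response differed from that of WT by −1.76 in KIKO and −2.08 in ERKO. Over all genes, 1.44% were called in ERKO against WT under oil, and 0.944% and 1.30% in KIKO and ERKO against WT after E2. For the responses the shares were 0.135% and 0.276%.

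The genes whose values over the 18 libraries were most like those of Vgf were found by the root mean square difference of log2 values, each gene centred on its own mean. They were Ier5l (0.260), Nefm (0.275), Sox3 (0.278), Nxph3 (0.292) and Tnfrsf11b (0.297), where the median over tested genes was 0.547 and Vgf itself varied by 0.492 about its mean. For Pcsk1 they were Kcnk10 (0.272), Enpp1 (0.274), Sox3 (0.281), Peg10 (0.298) and Cthrc1 (0.306), where the median was 0.489. Pcsk1 itself varied by 0.444. Sox3 was the gene named for both. In WT after E2, Nefm, Sox3, Nxph3 and Tnfrsf11b were called lower, where 0.802% of all genes were called. Ier5l, Kcnk10, Enpp1, Peg10 and Cthrc1 did not pass (adjusted p from 0.0743 to 0.465, limma). Enpp1 was low, at 0.270 to 2.85 FPKM. These genes were picked by likeness over the same libraries, so their calls are no separate support.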

How the data were processed

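The authors deposited 1 Cuffdiff gene table per library, with FPKM values, confidence bounds and a status, which was OK for the 10 members in all 18 libraries. TopHat2 2.0, Cuffdiff and mm10 are named in the submitters' processing notes, and the annotation is not given in the sources used here. Entries sharing a symbol were summed. The deposited gene positions did not lie on GRCm38 and were not used. Depth in fragments is not stated, so the authors' bounds are given in its place.

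The 14831 genes averaging 0.5 FPKM or more went into limma 3.58.1 (R 4.3.3) as log2(FPKM + 1), which understates changes of low genes. A single fit held 18 libraries and 6 group means, with variances that followed the mean and were robust to extreme genes, for 12 comparisons. Two-sided p-values were adjusted by Benjamini-Hochberg over these genes, with a threshold of 0.05. Values after ± are SE for log2 changes. Ratios were tested with exact permutations (scipy 1.17.1).

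The members, the pathway and marker lists and the tests were chosen with earlier results of these data known. The rule named all members, Esr1, list genes past the threshold (up to 4 per list and comparison) and the 5 genes nearest in pattern to each member spanning at least 1 on the log2 scale and tested. Pcsk1n, at just under 1, was not among them. Rln3 was named beyond the limit of 4 to account for every precursor called in WT. The scripts were tested on simulated data. Alternatives to the pseudocount, filter, scaling, variance model and libraries fitted were run, and 2 were chosen after seeing the data: leaving out small RNA genes and the pituitary covariate.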

Additional observations from a re-analysis of the deposited data

Results flagged for a closer look

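The response of Vgf to E2 differed between genotypes by a test of the difference itself: 1.865 ± 0.23 on the log2 scale for ERKO minus WT (adjusted p = 0.00113, limma). Vgf was lower after E2 in WT, with all 3 E2 libraries below all 3 oil libraries, and higher in ERKO, with all 3 above, although the ERKO change alone did not pass.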

How the results depend on the processing

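Over 2410 values of single members under alternatives, 2238 kept their direction and side of the threshold, 137 uncalled values changed sign, 13 calls were lost, 22 values newly passed and 0 called values changed sign. The fall of Vgf in WT passed in all its alternatives. For E2 against oil in WT, the 2 members called became 1 with no filter on low values, a filter at 5 FPKM, quantile normalization, only the compared groups in the fit and the pituitary covariate, each time through Pcsk1 (−1.04 under quantile normalization, adjusted p = 0.0525), and 1 to 3 without 1 library. The replicate block also left 1, with Pcsk1 at an adjusted p of 0.0530 (limma). Deviations of same-numbered oil and E2 libraries of a genotype correlated at r from −0.16 to 0.37. Those of differently numbered ones correlated at r from −0.41 to 0.26. These few overlapping values cannot tell whether the numbers pair the libraries. For ERKO against WT under oil, the 1 member called became 2 with quantile normalization (Scg5 added) or the covariate (Pcsk1n added), 3 with only the compared groups, library weights or ERKO E2 library 3 out of the shared fit (Pcsk2 and Pcsk1n added), and 0 to 1 without 1 library. For ERKO against WT after E2, 0 became 1 with plain eBayes or the covariate (Vgf), 2 with library weights (Vgf and Pcsk1) and 0 to 2 without 1 library. Library weights called 1 member in KIKO against ERKO under oil (Vgf) and 1 in KIKO against WT after E2 (Scg2), as did leaving ERKO E2 library 3 out for the latter. The KIKO minus WT response called 1 (Vgf) with ERKO E2 library 3 out of the fit (adjusted p = 0.0497) or the covariate (adjusted p = 0.0420), and the ERKO minus WT response called 0 with quantile normalization. The causes were not tested. Counts over all genes also moved: 119 in WT after E2 (57 to 393 over alternatives), 213 in ERKO against WT under oil (1 to 3290), 140 and 193 in KIKO and ERKO against WT after E2 (52 to 1006 and 13 to 1283), 2 in KIKO against WT under oil (0 to 342), 0 in KIKO against ERKO under oil (0 to 63), 20 and 41 for the KIKO and ERKO responses minus WT (3 to 57 and 10 to 100), and 4 or fewer in the rest.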
